A study of Mus musculus with 2 samples.

Results

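Proximal tubule S2-like cells were taken from single-cell RNA counts of mouse kidney cortex. They were barcodes that met a marker rule meant for the middle stretch of the proximal tubule. Meeting the rule does not by itself place a barcode there. They were chosen by their counts per 10000 unique molecular identifiers (UMIs, the molecules counted) of a barcode, among barcodes of 1000 or more UMIs, 200 or more genes and at most 50% mitochondrial UMIs. A member had Slc22a6 at 3 or more, Slc34a1 at 1 or more, Slc5a12 and Slc5a2 together below 3, Slc7a13 below 2, Slc12a1 and Umod together below 10, and 0 UMIs of Pecam1 and of Ptprc. The rule found 397 members among 15488 kept barcodes, 396 of them in the wild-type library and 1 in the PT I-PpoI library. The study held 1 library of each, from mice of 16 weeks. I-PpoI is a homing endonuclease that cuts DNA at its recognition sites, and the series title places its expression in the proximal tubular epithelium. The labels used here give no sex, promoter, Cre line, strain or number of animals, and neither I-PpoI nor Cre is among the features counted. With 1 library per group there was no replicate and no test between groups, and every interval below covers counting error only.

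The proximal tubule reclaims most of the filtrate and runs through the segments S1, S2 and S3 in turn. S1 is known for high-capacity uptake of glucose, sodium and neutral amino acids, S2 for secretion of organic anions, and S3 for late uptake of solutes and for many genes that differ between the sexes in mice. Slc22a6 encodes the organic anion transporter OAT1 of the basolateral membrane, which takes up organic anions in exchange for dicarboxylates, and Slc13a3 encodes a carrier that brings such dicarboxylates into the cell.

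S2-like cells were compared with neighbours set by the same kind of rule. S1-like cells had Slc5a12 and Slc5a2 together at 3 or more, Slc34a1 at 1 or more and Slc7a13 below 2. S3-like cells had Slc7a13 at 2 or more and Slc5a12 and Slc5a2 together below 3. The limits on Slc12a1, Umod, Pecam1 and Ptprc held for both. Wild type held 1941 S1-like and 1576 S3-like cells, and PT I-PpoI held 152 and 11. Because all these cells were chosen by their own transcripts, differences between the classes are a description and were not tested. The wild-type S2-like cells held 1692253 UMIs in all, with a median of 2830.5 per cell (1009 to 35698), 985 genes and 19.7% mitochondrial UMIs. They were shallower than S1-like cells, with a median of 5968 UMIs, and S3-like cells, with 6285. The libraries shared 19 kept barcodes, of which 0 were S2-like.

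S2-like cells were nearly absent from the PT I-PpoI library. They made up 3.80% of kept barcodes in wild type (396 of 10412, exact Clopper-Pearson 95% interval 3.44 to 4.19) and 0.0197% in PT I-PpoI (1 of 5076, 0.000499 to 0.110). Among cells of the S1-like, S2-like and S3-like classes alone, the S2-like share was 10.1% (9.19 to 11.1) of 3913 cells in wild type and 0.610% (0.0154 to 3.35) of 164 cells in PT I-PpoI. S1-like cells were 49.6% of these 3 classes in wild type and 92.7% in PT I-PpoI, and S3-like cells 40.3% and 6.71%. The neighbours too were a smaller part of kept barcodes in PT I-PpoI. S1-like cells made up 18.6% in wild type and 2.99% in PT I-PpoI, and S3-like cells 15.1% and 0.217%. A low share was thus not particular to S2-like cells. Fewer S2-like cells and less Slc22a6 RNA per cell cannot be told apart from these shares.

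The first step of the rule removed most barcodes of both libraries, 5055 of 5076 in PT I-PpoI and 7945 of 10412 in wild type. Slc22a6 reached 3 per 10000 in 2467 wild-type barcodes and in 21 of PT I-PpoI, where the median kept barcode was deeper (11633 UMIs, against 3344 in wild type). Of the 21, 11 were S3-like, 6 were S1-like, 1 was S2-like and 3 met none of these rules. In wild type the limit on Slc7a13, the S3 cystine carrier gene, removed 1236 of the 1714 barcodes that had reached it, which left 478 before the last limits. When each barcode was thinned at random to 1000 UMIs, 546 wild-type and 3 PT I-PpoI barcodes met the S2-like rule, or 18.6% and 3.26% of the 3 classes. Of the 546, 187 were members at their own depth, 221 were S3-like, 79 S1-like and 59 in none of the classes. Of the 3, 2 were S3-like and 1 was S1-like at their own depth. These shares thus also count neighbours that lost UMIs of their own rule genes. The shares by setting are plotted for both libraries.

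**Figure D1:**
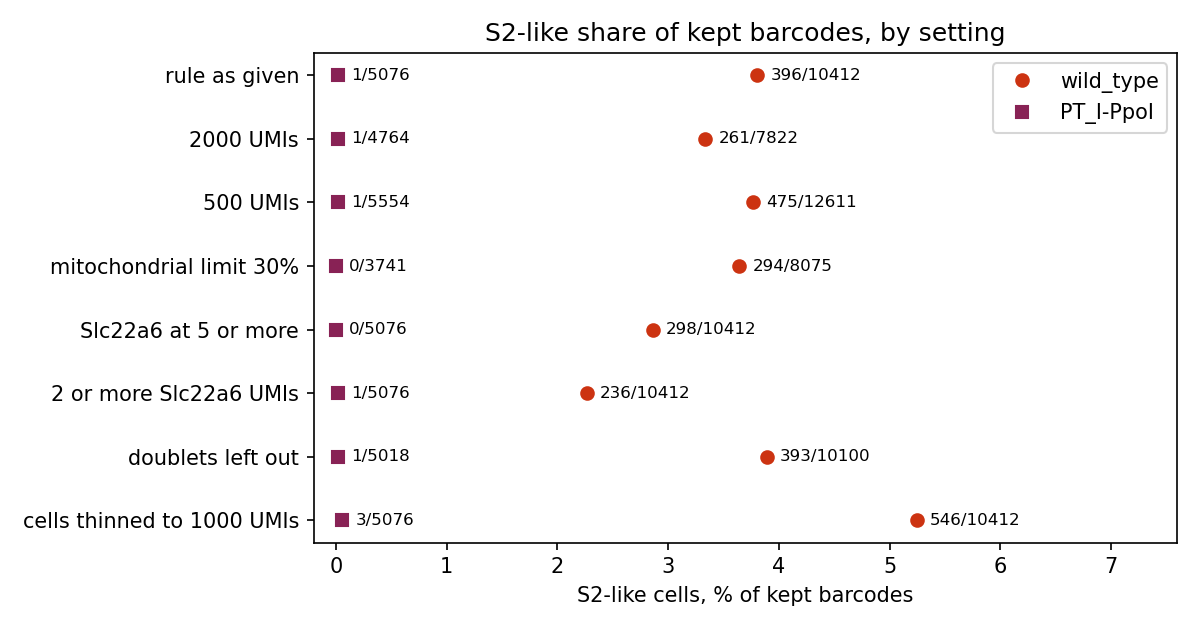
S2-like cells as a percentage of kept barcodes (x axis) under the rule as given and 7 other settings (y axis), with members over barcodes beside each point. Wild type lies between 2.27% and 5.24%, and PT I-PpoI between 0 and 0.0591%, with no overlap.

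Membership turned on few Slc22a6 molecules. Of the 396 wild-type members, 160 had 1 Slc22a6 UMI, 81 had 2 and 155 had 3 or more. Free RNA, read from barcodes of 10 to 100 UMIs, held Slc22a6 at 260 CPM (UMIs per 1000000 UMIs) in wild type and 9.69 in PT I-PpoI. Slc22a6 also reached 3 per 10000 in 8.50% of the wild-type barcodes with a UMI of the endothelial gene Pecam1 (172 of 2024) and in 7.77% of those with a UMI of the leukocyte gene Ptprc (104 of 1338). In PT I-PpoI these shares were 0.104% and 0.246%. The part of free RNA in membership was not tested.

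The 10 genes of the S2 segment list (Slc13a3, Slc22a8, Slc22a12, Slc22a30, Slco4c1, Cyp4b1, Aadat, Slc22a2, Abcc4 and Slc17a3), none of them in the rule, summed to 2260 CPM in members with 1 Slc22a6 UMI, 2382 with 2 and 4019 with 3 or more. Macrophage and dendritic markers summed to 1858, 191 and 151 CPM over the same members, and endothelial markers to 787, 77.4 and 42.0 CPM. Distal and collecting duct markers went the other way, at 511, 586 and 1568 CPM. Members with 1 Slc22a6 UMI thus held the most macrophage and endothelial RNA and the least of the S2 list and of the distal list. Few cells carried these markers, since the 5 members richest in each list held 82.1% of its UMIs for the macrophage, 51.6% for the endothelial and 74.7% for the distal list. They were also the shallowest, with a median of 1695 UMIs against 5415 in members with 3 or more. At the threshold, 38 barcodes that met all other limits with Slc22a6 at 2 to below 3 had Kap at 18292 CPM and Slc13a3 at 138 CPM. The 48 members at 3 to below 4 had 33412 and 165 CPM.

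**Figure D2:**
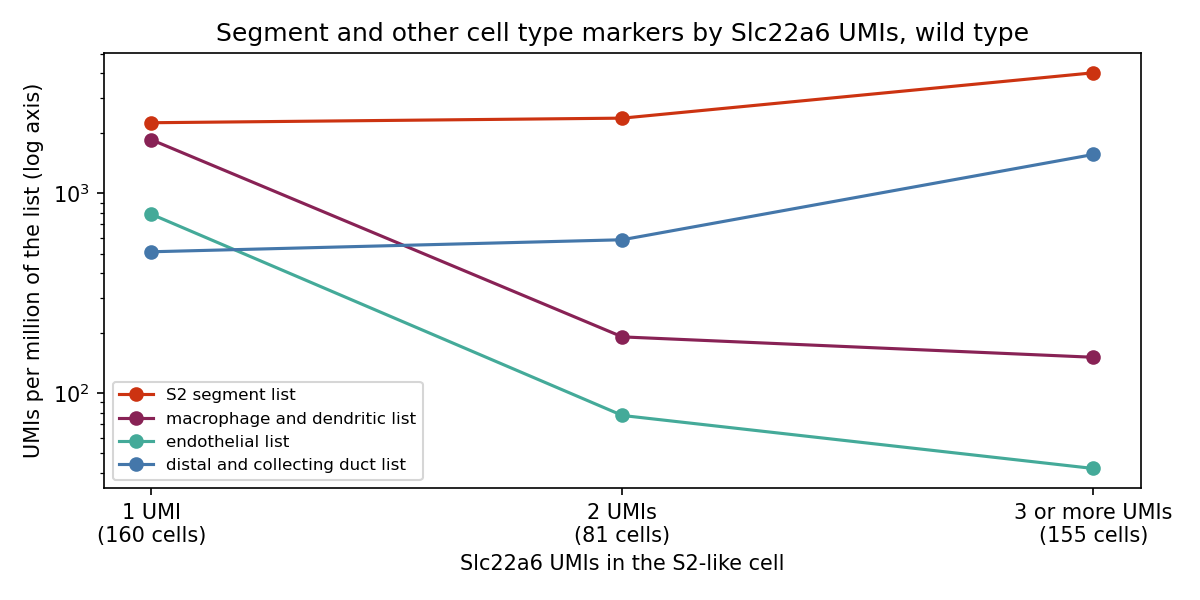
Summed CPM (log axis) of the S2 segment, macrophage and dendritic, endothelial, and distal and collecting duct lists in wild-type S2-like cells, by the number of Slc22a6 UMIs in the cell. The S2 list goes from 2260 to 4019 CPM while the macrophage list goes from 1858 to 151, the endothelial list from 787 to 42.0 and the distal list from 511 to 1568.

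The markers of the S2-like label that the rule did not use, Slc13a3, Miox and Kap, were all read above free RNA in wild-type members. Slc13a3 stood at 267 CPM in S2-like cells (Poisson 95% interval 243 to 293), 131 in S1-like cells, 305 in S3-like cells and 73.0 in free RNA. Its log2 ratio was 1.03 (0.88 to 1.18) over S1-like cells and −0.19 (−0.34 to −0.05) over S3-like cells. So this S2 marker set the members apart from S1-like cells and not from S3-like cells, and its ratio over S1-like cells fell short of 2-fold, at 0.87, when ratios were centred on the median gene. Its ratio over S3-like cells became 0.06 after free RNA was subtracted.

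Miox encodes myo-inositol oxygenase, the first enzyme of inositol breakdown in the kidney. It stood at 3882 CPM in S2-like cells, 2793 in S1-like cells, 2368 in S3-like cells and 1245 in free RNA. S2-like cells thus had the highest level of the 3 classes, by log2 ratios of 0.48 (0.44 to 0.51) and 0.71 (0.67 to 0.75). That order held under each of the 10 other settings tried for the ratios, from 0.27 to 0.75 over S1-like cells and from 0.59 to 1.01 over S3-like cells.

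Kap, the kidney androgen-regulated protein gene, stood at 37741 CPM in S2-like cells, 4206 in S1-like cells, 57713 in S3-like cells and 11921 in free RNA. Per cell, the median was 344 UMIs per 10000 in S2-like cells, with 10% of cells at or below 26.9. The medians were 9.27 in S1-like and 547 in S3-like cells. Kap was read in 97.7% of S2-like cells thinned to 1000 UMIs (99.5% unthinned), but also in 75.6% of lymphocyte-like barcodes. Its level per cell overlapped between the classes, with quartiles of 117 and 536 in S2-like and 349 and 787 in S3-like cells, and with 10% of S1-like cells at or above 156.

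The 2 rule genes are given as a description. Slc22a6 stood at 850 CPM in S2-like, 209 in S1-like and 906 in S3-like cells. Slc34a1, which encodes the main renal sodium-phosphate cotransporter, stood at 3124, 4536 and 3243 CPM. Slc22a6 took part in choosing S2-like but not S3-like cells, and its log2 ratio between them was −0.09. The rule's Slc22a6 minimum shaped the S2-like level, so this ratio cannot show whether the classes are alike in Slc22a6. In mm10 with GENCODE M21, Slc22a6 (ENSMUSG00000024650) lies on chr19 from 8618039 to 8628299, Slc13a3 (ENSMUSG00000018459) on chr2 from 165405028 to 165473230, and Slc34a1 (ENSMUSG00000021490) on chr13 from 55398187 to 55415592. Miox (ENSMUSG00000022613) lies on chr15 from 89334398 to 89337015 and Kap (ENSMUSG00000032758) on chr6 from 133849851 to 133853762.

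**Figure D3:**
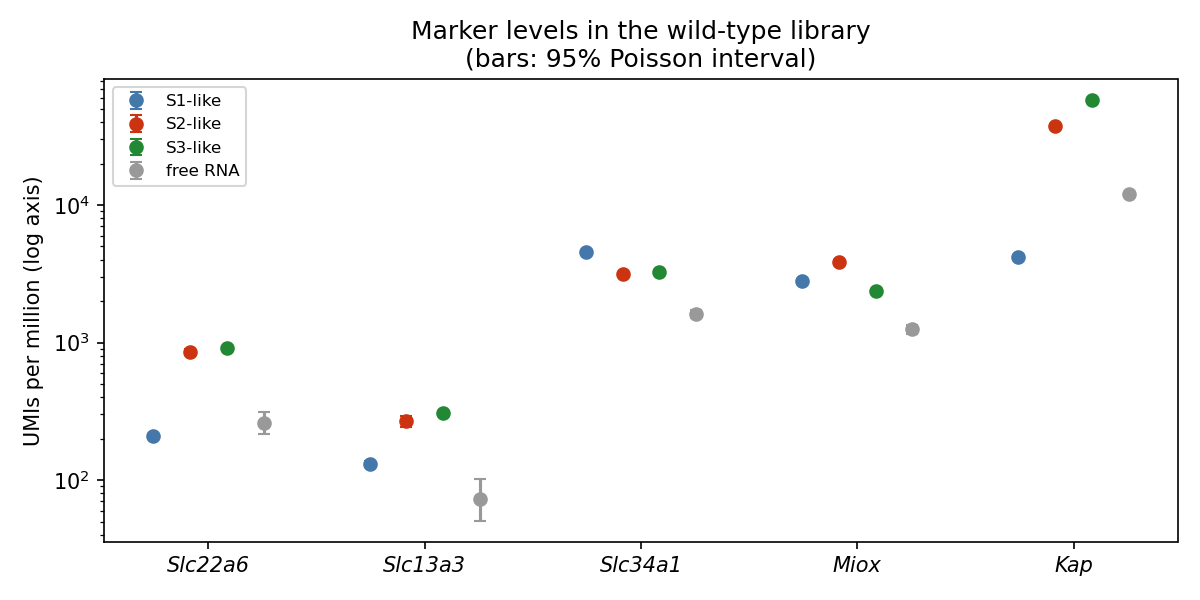
Level in CPM (log axis) of the 5 marker genes in wild-type S1-like, S2-like and S3-like cells and in free RNA, with Poisson 95% intervals. Miox is highest in S2-like cells at 3882 CPM, while Kap goes from 4206 in S1-like through 37741 in S2-like to 57713 in S3-like cells.

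Across all genes, wild-type S2-like cells lay between their neighbours and nearer to S3-like cells. Genes for these ratios were taken at 50 CPM or more in the higher class and 20 or more UMIs over both, without the 9 genes of the rule. Against S1-like cells, 139 of 2562 genes (5.43%) were 2-fold or more higher in S2-like cells and 163 (6.36%) were 2-fold or more lower, 302 (11.8%) in all. Against S3-like cells, 33 of 2422 genes (1.36%) were higher and 50 (2.06%) lower, 83 (3.43%) in all. The median over all genes taken was 0.16 and −0.07 on the log2 scale. With mitochondrial genes and Gm42418 left out of the totals these medians moved by −0.24 and 0.12, and the counts were 131 higher and 338 lower against S1-like cells and 60 and 49 against S3-like cells. With ratios centred on the median they were 96 and 245, and 36 and 45.

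S3-like and S1-like cells differed 2-fold or more from each other in 426 of 2659 genes (16%), or 413 without unnamed gene models and the families left out of rankings. Of the 413, 373 (90.3%) had an S2-like level between the other two. Another 2 lay beyond the S1-like level and 38 beyond the S3-like level. The 413 were chosen as apart in the neighbours, without S2-like cells, which favours levels between. The rule's limits on Slc5a12, Slc5a2 and Slc7a13 in S2-like cells favour such levels too. On a scale from 0 at the S1-like to 1 at the S3-like level, the median gene stood at 0.70 in S2-like cells (quartiles 0.56 and 0.82). It was 0.69 for the 247 genes higher in S3-like cells and 0.71 for the 166 higher in S1-like cells. Such sums do not show where single cells lie, so each cell was placed on the same axis.

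Each cell was thinned to 1000 UMIs and given an axis value, the share of S3-side UMIs among all axis UMIs, from 77 genes 4-fold or more higher in S3-like and 63 genes 4-fold or more higher in S1-like cells, without Kap. The median over S2-like cells was 0.65 (quartiles 0.42 and 0.80). Of the 396 cells, 228 (57.6%, 52.5 to 62.5) lay between 0.25 and 0.75, 49 lay below and 119 above. In S1-like cells 16.2% and in S3-like cells 22.2% lay in that range. The axis genes were chosen from these same S1-like and S3-like cells, while S2-like cells took no part. Low middle shares in the neighbours are therefore partly built in. The rule also left barcodes high in Slc5a12, Slc5a2 or Slc7a13 out of the S2-like class. A high middle share of S2-like cells is thus partly built in as well, and the contrast is a description. The share in the range was 59.3% in members under 2000 UMIs, 53.4% at 2000 to under 5000 and 62.2% at 5000 or more. Over all cells of each class, free RNA made up an estimated 33.0% of S2-like, 15.2% of S1-like and 15.1% of S3-like UMIs. Without the 22 S2-like cells rich in other cell types' markers their estimate was 11.5%, and the neighbours were not estimated that way. The estimate counts marker UMIs in such cells as free RNA, and the values after free RNA subtraction use the 33.0%. Scrublet called 3 of the 396 as doublets. The part of free RNA, and of doublets that Scrublet missed, in the middle values was not tested.

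**Figure D4:**
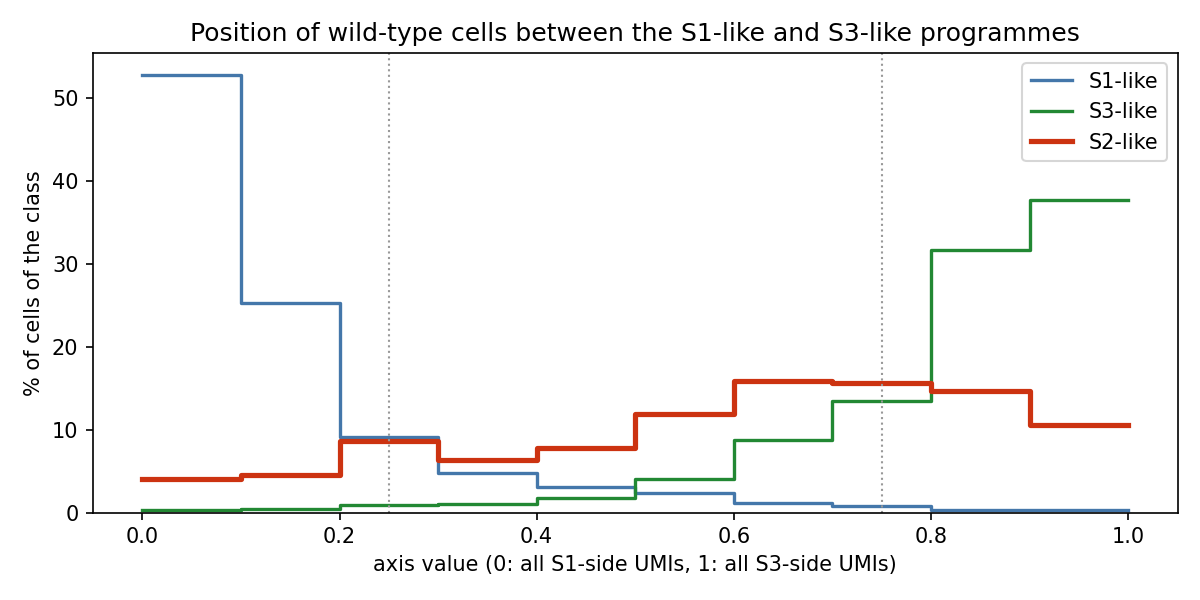
Share of wild-type cells of each class (y axis, %) by axis value in steps of 0.1 (x axis), with dotted lines at 0.25 and 0.75. S1-like cells gather at the left and S3-like cells at the right, while S2-like cells spread between, with 57.6% inside the dotted lines. The axis genes were chosen from the S1-like and S3-like cells shown, and the rule left cells high in Slc5a12, Slc5a2 or Slc7a13 out of the S2-like class.

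Among all wild-type barcodes with Slc34a1 at 1 or more, whatever their class, 1329 of 4840 (27.5%, 26.2 to 28.7) lay between 0.25 and 0.75. In PT I-PpoI 18 of 206 did (8.74%, 5.26 to 13.5). There 177 of the 206 lay below 0.25. Slc22a6 took no part in choosing these barcodes. Slc34a1, which did, stood at 1618 CPM in free RNA of wild type and at 221 in that of PT I-PpoI. A Slc34a1 UMI was read in 23.7% of thinned wild-type lymphocyte-like barcodes (42.7% unthinned), so the set can hold barcodes of other cell types. The free RNA of the libraries differed on the S3 side of the axis, with Napsa at 539 CPM in wild type against 28.6 in PT I-PpoI and Slco1a1 at 66.5 against 10.6, and on the S1 side, with Gatm at 446 against 114. Its part in the shares was not tested.

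Most genes of the S1 segment list were lower in S2-like than in S1-like cells without reaching the S3-like level. Of the 8 genes taken from the S1 segment list, 0 were 2-fold or more higher and 7 lower than in S1-like cells (median log2 ratio −1.71, all genes 0.16). Over all genes 5.43% were higher and 6.36% lower. Against S3-like cells, 2 of 6 were higher and 0 lower (median 0.83, all genes −0.07), beside 1.36% and 2.06% over all genes. The same shares stand behind every list count below, which describes genes in classes chosen by transcripts and is no test. In the S1 list, Slc1a1 went the other way, at 125 CPM in S2-like, 112 in S1-like and 165 in S3-like cells. Hpd, below the CPM minimum, did too, at 17.1, 1.04 and 25.2 CPM. Slc9a3, also below the minimum, stood at 21.9, 46.9 and 25.5 CPM. Gatm, which makes the creatine precursor guanidinoacetate, stood at 790 CPM in S2-like cells, 2427 in S1-like cells and 140 in S3-like cells, log2 ratios of −1.62 and 2.49. It was read in 38.1% of thinned S2-like cells, 82.4% of S1-like and 9.96% of S3-like cells, with 11.5% in lymphocyte-like barcodes (58.6%, 95.4%, 35.0% and 26.6% unthinned; median depths 2830.5, 5968, 6285 and 2673 UMIs).

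Slc6a19, the main apical carrier of neutral amino acids, stood at 53.8 CPM in S2-like, 264 in S1-like and 22.4 in S3-like cells. Slc7a8, a basolateral amino acid exchanger gene, stood at 43.7, 281 and 19.6 CPM, and its partner in basolateral exit Slc7a7 at 58.5, 228 and 31.9 CPM. These put S2-like cells 2.29, 2.67 and 1.96 log2 units below S1-like cells. Wild-type free RNA held Slc6a19 at 42.9, Slc7a8 at 51.5 and Slc7a7 at 83.7 CPM, near or above the S2-like levels. The part of free RNA in these S2-like levels was not tested. Slc4a4, the basolateral sodium-bicarbonate cotransporter gene, stood at 807, 1902 and 727 CPM, so that it separated S2-like from S1-like cells (−1.24) and hardly from S3-like cells (0.15). Of the 13 amino acid transport genes taken, 6 were lower and 1 was higher than in S1-like cells. The exception was Slc6a18, the late-segment neutral amino acid carrier gene, at 86.3, 18.2 and 228 CPM.

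Genes of the S2 segment list were mostly higher than in S1-like cells and none was highest by 2-fold in S2-like cells. Of 8 genes taken, 4 were 2-fold or more higher and 0 lower than in S1-like cells (median 0.99), while 0 were higher and 2 lower than in S3-like cells (median −0.50). Abcc4, a gene of this list below the CPM minimum, went the other way against S1-like cells, with a log2 ratio of −1.13 (−1.77 to −0.60). Cyp4b1, a cytochrome P450 gene, stood at 1563 CPM in S2-like, 643 in S1-like and 2109 in S3-like cells. Slc22a2, the organic cation transporter OCT2 gene, stood at 274, 103 and 407 CPM. Aadat, an aminotransferase gene of lysine and kynurenine metabolism, stood at 112, 34.3 and 249 CPM. All 3 followed the order S1-like, S2-like, S3-like.

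The organic anion transporter gene Slc22a8 (OAT3) departed from that order. It stood at 423 CPM in S2-like, 336 in S1-like and 273 in S3-like cells, log2 ratios of 0.33 (0.22 to 0.45) and 0.63 (0.52 to 0.75). After thinning it was read in 24.2% (20.1 to 28.8), 22.8% (20.9 to 24.7) and 17.3% (15.4 to 19.2) of these cells, with 3.33% in lymphocyte-like barcodes. Unthinned these shares were 52.3%, 61.8%, 50.1% and 12.6%, and the S2-like and S1-like intervals overlapped. The urate carrier gene Slc22a12 stood at 266, 173 and 358 CPM and the phosphate and urate carrier gene Slc17a3 at 389, 202 and 643 CPM. Slc22a30 was at 155 CPM in S2-like cells, near the 171 of S1-like cells and below the 340 of S3-like cells. Slco4c1 was read in 0 of 396 thinned cells, a limit of 0.758% on thinned cells with a UMI and not on cells that express it. Over the wider list of organic anion and cation transport, 2 of 14 genes were higher and 0 lower than in S1-like cells, and 0 were higher and 1 of 14 lower than in S3-like cells. With so few genes these counts do not stand apart from the all-gene shares.

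S3-side genes mirrored this order. Of the 8 genes taken from the S3 segment list, 7 were 2-fold or more higher than in S1-like cells and 0 lower (median 3.01). Of 11 taken against S3-like cells, 0 were higher and 9 lower (median −1.82). Slco1a1, an organic anion uptake gene that is higher in male kidney, stood at 126 CPM in S2-like, 7.59 in S1-like and 448 in S3-like cells, log2 ratios of 4.05 (3.72 to 4.40) and −1.82 (−2.03 to −1.63). Slc5a8, a sodium-coupled monocarboxylate carrier gene, stood at 122, 9.75 and 304 CPM. Napsa, an aspartic protease gene, stood at 649, 96.7 and 2587 CPM. It was read in 36.6% of thinned S2-like cells (65.4% unthinned), with 13.7% in lymphocyte-like barcodes (27.0%).

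Some S3-side genes were far below the S3-like level in S2-like cells. Cyp7b1, an oxysterol hydroxylase gene, had 5 UMIs in S2-like cells, which is 2.95 CPM against 2.30 in S1-like and 127 in S3-like cells, a log2 ratio of −5.28 (−7.05 to −4.20) over S3-like cells. Serpina1d, a protease inhibitor gene of a family of near-identical copies, had 2 UMIs and a ratio of −5.52. The organic anion transporter gene Slc22a7 stood at 10.6, 1.81 and 144 CPM, the motor protein gene Myo5a at 5.32, 2.16 and 54.1 CPM, and the meprin subunit gene Mep1b at 16.0, 1.25 and 130 CPM. All 3 were still above the S1-like level, Slc22a7 by 2.57, Myo5a by 1.36 (0.04 to 2.41) and Mep1b by 3.66 log2 units. For that ratio they were below the CPM minimum. These 5 had the lowest ratios over S3-like cells among the genes named by rule that met the 50 CPM minimum. Among the lowest over S1-like cells were Ugt2b34 (1.77 and 50.3 CPM), Cttnbp2 (4.73 and 60.1), Snhg11 (28.4 and 332) and Epb41l3 (9.45 and 91.2).

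**Figure D5:**
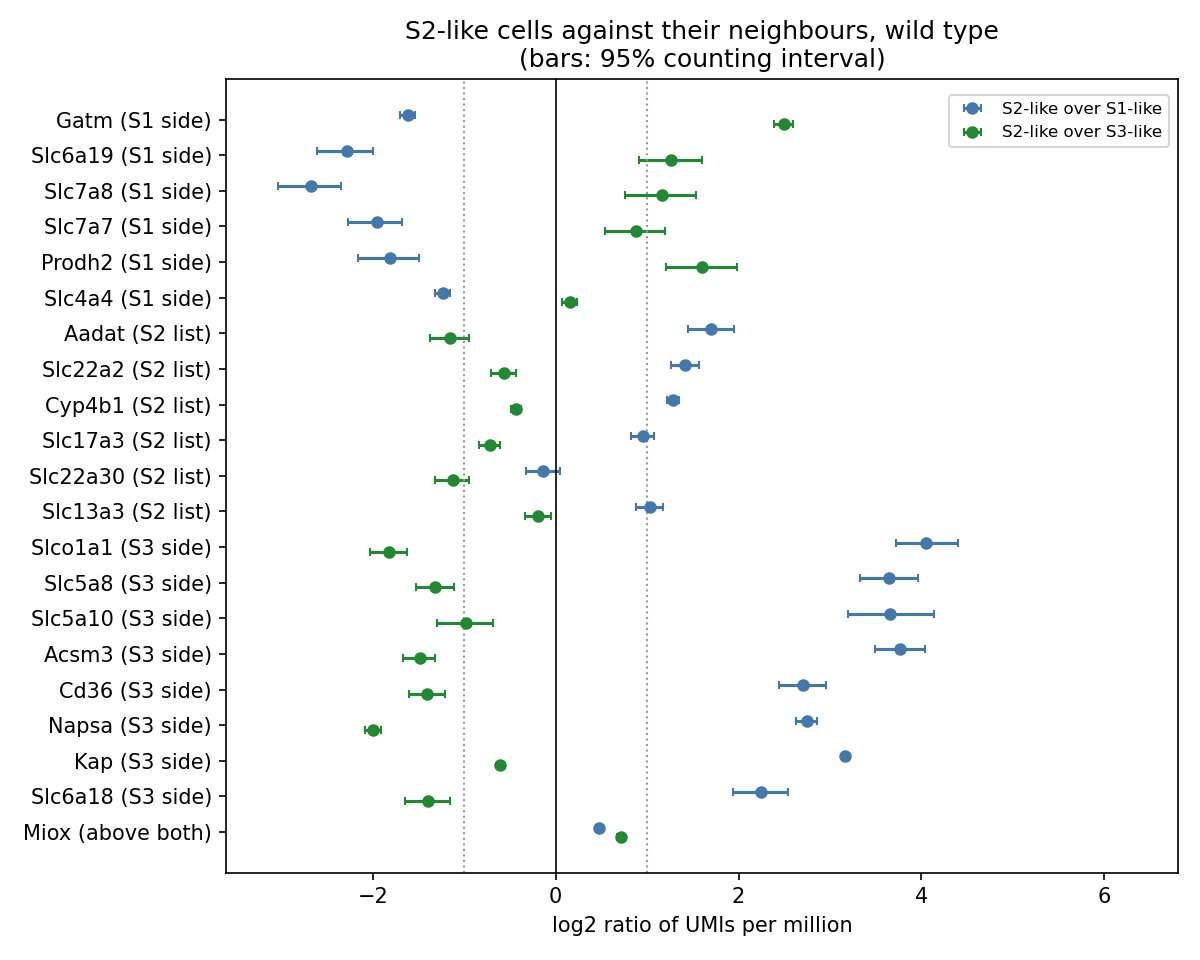
Log2 ratios (x axis) of wild-type S2-like cells over S1-like and over S3-like cells for genes of the S1 side, the S2 list and the S3 side and for Miox (y axis), with 95% counting intervals and dotted lines at 2-fold. The S1-side genes shown lie left of 0 over S1-like cells and right of 0 over S3-like cells. The S3 side is the mirror image, and Miox is right of 0 in both.

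Fatty acid oxidation and cytochrome P450 genes were above S1-like and below S3-like cells by list median. Of 30 fatty acid oxidation genes taken, 8 were 2-fold or more higher and 2 lower than in S1-like cells (median 0.73), and 0 were higher and 3 lower of 29 than in S3-like cells (median −0.21). Over all genes these shares were 5.43% and 6.36% against S1-like cells, and 1.36% and 2.06% against S3-like cells. Acsm3, a medium-chain acyl-CoA synthetase gene, stood at 168 CPM in S2-like, 12.4 in S1-like and 473 in S3-like cells. Cd36, a fatty acid uptake receptor gene, stood at 133, 20.4 and 353 CPM, and Slc27a2, a very long-chain acyl-CoA synthetase gene, at 1039, 458 and 2063 CPM.

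Of 13 cytochrome P450 genes, 9 were higher and 1 lower than in S1-like cells (median 1.28), and 0 were higher and 4 lower than in S3-like cells (median −0.84). The lower one was Cyp2d26, at 41.4 CPM in S2-like, 195 in S1-like and 15.5 in S3-like cells. Cyp2a4, which reads may not separate from its copy Cyp2a5, stood at 74.5, 7.73 and 309 CPM. Of 14 sex-dependent genes, 9 were higher and 0 lower than in S1-like cells, and 0 were higher and 5 lower than in S3-like cells. Among brush border enzyme genes, 4 of 6 were higher than in S1-like cells, and the 1 lower was the dipeptidase gene Dpep1 at 49.0, 146 and 16.2 CPM. Beside these lists, 5.43% of all genes were higher and 6.36% lower against S1-like cells, and 1.36% and 2.06% against S3-like cells.

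Of 30 nuclear genes of oxidative phosphorylation, 0 differed 2-fold from either class (medians 0.32 and 0.01), beside 11.8% of all genes against S1-like and 3.43% against S3-like cells. In lists as short as 12 endocytosis, 11 gluconeogenesis and 6 glycolysis genes, 0 past 2-fold is near those shares and is no result about the list. Of 16 genes of creatine, inositol and ammonia metabolism, 1 was higher and 3 lower than in S1-like cells, and 1 of 15 was higher and 0 lower than in S3-like cells. Megalin gene Lrp2, the endocytic receptor of the brush border, stood at 1720 CPM in S2-like, 1875 in S1-like and 1691 in S3-like cells. The 13 mitochondrially encoded genes had medians of −0.35 and 0.15 with 0 past 2-fold, but they moved with the processing. They were −1.20 and −0.58 after free RNA was subtracted, and 0.03 and 0.05 at a mitochondrial limit of 30%. Below the S1-like level were Gpx3 and Maf, by −1.40 and −1.60 on the log2 scale. Gpx3, the secreted glutathione peroxidase gene, stood at 5737, 15191 and 3386 CPM and the transcription factor gene Maf at 323, 979 and 256 CPM.

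Of the tubular injury list, 4 genes met the minimum against each class. Against S1-like cells 1 was 2-fold or more higher and 1 lower (median −0.06), and against S3-like cells 2 were higher and 1 lower (median 0.85). Havcr1, the classic proximal tubule injury gene, had 0 UMIs in all 396 wild-type members. At their depth this limits cells with a UMI to 0.758% and sets no limit on cells that express it. Spp1, a secreted phosphoprotein gene, stood at 295 CPM against 744 in S1-like and 56.7 in S3-like cells, and the 5 members richest in it held 55.0% of its UMIs. It was read in 15.4% (11.99 to 19.3) of thinned members, with 10.5% in lymphocyte-like barcodes (27.3% and 22.2% unthinned).

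Genes highest in S2-like cells over both neighbours were mostly genes of other cell types, with most of their UMIs in few barcodes. By the smaller of both ratios the first 10 were Klk1, Atp6v1g3, Tm4sf1, S100a6, Tagln, Cd74, S100g, H2-Aa, Btg2 and H2-Eb1. Klk1 (kallikrein) and S100g (a calcium-binding protein) are known from the distal tubule, and Cd74, H2-Aa and H2-Eb1 from antigen-presenting cells. The 5 richest cells held 89.7% of the Klk1 UMIs, 96.8% for the smooth muscle gene Tagln, 82.1% for Cd74 and 82.3% for S100g. With Slc22a6 at 5 or more, Atp6v1g3, S100a6, Tagln and Btg2 were lower in S2-like cells than in both neighbours. Over 100 UMIs per 10000 of other cell types' markers were found in 22 of 396 S2-like cells (5.56%), 2.32% of S1-like and 3.36% of S3-like cells. Their leading list was endothelial in 8, distal and collecting duct in 7, macrophage and dendritic in 5, stromal in 1 and thick ascending limb in 1.

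Without such cells in any class, 1 gene, S100a6, was 2-fold or more higher than in both neighbours, against 12 of 2134 with them. Even this one rested on few barcodes, since 1 cell held 60 of its 86 UMIs. Next by the same measure came Tmsb4x, an actin-binding peptide gene, at 203 CPM in S2-like, 113 in S1-like and 79.6 in S3-like cells, and Cyp4a12a, a male-biased fatty acid hydroxylase gene with a near-identical copy, at 62.1, 27.8 and 35.6 CPM. Ttr (transthyretin) stood at 562, 341 and 229 CPM and C1qtnf12 at 117, 63.8 and 81.1 CPM. Miox ranked 8 in this order, with ratios of 0.52 and 0.76. The genes in this paragraph other than Miox, S100a6 and Cyp4a12a were named after their values were seen.

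Members differed among themselves by the UMIs left of the genes that bound the rule. In 300 members neither Slc5a12 nor Slc5a2 nor Slc7a13 had a UMI, and these had Gatm at 721 CPM, Napsa at 696 and Kap at 36329. The 38 with only Slc5a12 or Slc5a2 had Gatm at 1080 CPM, Napsa at 311 and Kap at 26750. The 36 with only Slc7a13 had Gatm at 184 CPM, Napsa at 1158 and Kap at 59042. The 22 with both had Gatm at 1217 CPM, Napsa at 393 and Kap at 32242. Members with UMIs of 1 side only thus differed from the 300 in the direction of the neighbour on that side in these 3 genes. These groups also differed in depth, with medians of 2282 UMIs in the 300, 5110.5, 6354 and 11095. After thinning to 1000 UMIs, 187 of the 396 members still met the rule, and 221 S3-like and 79 S1-like cells met it in addition.

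The PT I-PpoI member had 4211 UMIs, 1202 genes and 44.2% mitochondrial UMIs. It held 2 UMIs of Slc22a6, 1 of Slc13a3, 8 of Slc34a1, 1 of Miox and 2 of Kap. Lrp2 had 23 UMIs and the nuclear RNA Malat1 517. Kap was thus at 4.75 per 10000 against 377 over wild-type members, where 4 cells had as little. In 24 wild-type members the mitochondrial share was as high, and in 23 Malat1 was. Its axis value was 0.83. It was lost at a mitochondrial limit of 30% and at a Slc22a6 minimum of 5, so a comparison of genes in S2-like cells between the libraries was not made.

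In neighbour classes, S2-like markers differed between the libraries mostly on the S1 side. In S1-like cells Slc22a6 stood at 21.4 CPM in PT I-PpoI against 209 in wild type, a log2 ratio of −3.27 (−3.75 to −2.86), and at 774 and 906 CPM in S3-like cells, −0.22 (−0.46 to −0.01). Slc13a3 stood at 5.85 and 131 CPM in S1-like cells (−4.43) and at 242 and 305 CPM in S3-like cells (−0.32). Kap stood at 129 and 4206 CPM in S1-like cells (−5.03) and at 51771 and 57713 CPM in S3-like cells (−0.16). Miox was lower in PT I-PpoI in both, by −0.92 and −1.13. Only 11 S3-like cells of PT I-PpoI stand behind these values. Free RNA made up an estimated 11.1% of S1-like UMIs in PT I-PpoI, against 15.2% in wild type, and wild-type free RNA held Kap at 11921 CPM. Its part in these ratios was not tested.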

How the data were processed

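Single cells of kidney cortex were counted with 10x 3' v3.1 chemistry in 1 PT I-PpoI and 1 wild-type library. For each library the authors deposited raw counts of UMIs for 31053 genes in every barcode, 93257620 and 107977310 UMIs in all. Counting used mm10 with Cell Ranger 3.1 and later steps Seurat 3, per the submitters' processing notes, whereas the matrix headers name Cell Ranger 4, per the file headers.

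Here the selection rule was applied to those counts. UMIs were summed over cells of a class and scaled to CPM. To each sum 0.5 was added for log2 ratios, whose 95% intervals are exact binomial ones given the total of both sums. Sums have Poisson and shares Clopper-Pearson intervals. UMIs were treated as independent, so intervals are too narrow where few cells hold most UMIs of a gene. A count of 0 was given a limit of 3 counts. Genes of 50 CPM in the higher class and 20 UMIs over both were taken. List medians in the report are over these genes. Free RNA was the sum of barcodes of 10 to 100 UMIs. It was estimated per class, over all cells of that class, from markers of other cell types. Lymphocyte-like barcodes had a Ptprc UMI and 3 or more UMIs of lymphocyte markers. Scrublet, in scanpy 1.11.5, used an expected rate of 0.06, and doublets were kept in the main values. The ratio and class steps were tested on simulated data.

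Named genes were the markers, the 10 with the largest smaller ratio over both neighbours, the 5 lowest over each, and in each list up to 4 with the most extreme ratios (20 UMIs or more in the higher class). Other genes were named as examples of their lists. A few genes that the rule selects are not reported here. Mitochondrial, ribosomal, haemoglobin, immunoglobulin and Y-linked genes and unnamed gene models were left out of the rankings. The members, the rule and the 38 gene lists were chosen with earlier results of these data known. Planned ratios between the libraries were not made, since PT I-PpoI held 1 member. Alternatives were other depth, mitochondrial, Slc22a6, doublet, scaling and expression limits.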

Additional observations from a re-analysis of the deposited data

How the results depend on the processing

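The S2-like share of wild-type barcodes was 3.34% at a minimum of 2000 UMIs, 2.86% with Slc22a6 at 5 or more, 2.27% with 2 or more Slc22a6 UMIs and 5.24% after thinning to 1000 UMIs. In PT I-PpoI it was 0 at a mitochondrial limit of 30% and with Slc22a6 at 5 or more. The other 8 of the 14 values stayed within the counting interval of the share under the rule as given. Against S1-like cells, 270 genes were higher after subtraction of free RNA, and the number lower was 268 at a mitochondrial limit of 30%, 338 without mitochondrial genes and Gm42418, 245 with ratios centred on the median and 70 at 100 CPM. Against S3-like cells, the number higher was 21 without cells rich in other markers, 60 without mitochondrial genes and Gm42418 and 14 at 100 CPM, and the number lower was 28 at 100 CPM. With 10 UMIs and no CPM minimum the counts were 945 higher and 1750 lower against S1-like and 894 and 783 against S3-like cells. The share of S2-like cells in the middle of the axis was 51.3% with axis genes 2-fold apart and 66.4% with bounds of 0.2 and 0.8. The causes were not tested.

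Among values at 2-fold or more under the rule as given, for lists and for named genes that met the CPM minimum, these turned. Without cells rich in other markers, Atp6v1g3 stood at −0.56 over S3-like cells. With 2 or more Slc22a6 UMIs, Cd74 (−0.054) and H2-Eb1 (−0.047) turned over S3-like cells, endothelial markers had medians of −0.29 and −0.56 and macrophage and dendritic markers −0.20 and −0.27 over S1-like and S3-like cells. With Slc22a6 at 5 or more, Atp6v1g3 stood at −2.27 and −2.39, S100a6 at −0.14 and −0.65, Tagln at −1.70 and −2.27, Btg2 at −0.56 and −0.44, and distal and collecting duct markers at −0.41 over S3-like cells. As a mean over cells, S100g stood at −0.21 over S1-like cells. For gene counts, ratios and the axis, every setting other than free RNA subtraction and the depth minimum was chosen after seeing the data. Of 743 list medians recomputed 69 changed sign, 5 of them from 2-fold or more. Of 4460 ratios of named genes 194 did, 71 of them from 2-fold or more, and 12 of these 71 were of genes that met the minimum. Among medians nearer to 0, mitochondrially encoded genes turned to −0.58 over S3-like cells after free RNA subtraction and to 0.03 over S1-like cells at a mitochondrial limit of 30%. No paired analysis was possible because each group had 1 library.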

Other observations

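Lists close to DNA damage were too low in S2-like cells to compare at the CPM minimum. None of the 26 double-strand break repair genes reached it, and 5 of 31 p53 targets did. Cdkn1a, the cell cycle arrest gene, was read in 1.26% of the wild-type members unthinned and in 0 of 396 thinned to 1000 UMIs. For that depth a count of 0 limits thinned cells with a UMI to 0.758%, and it does not limit cells that express the gene. Gdf15, a stress-induced secreted factor gene, was read in 0.758% (0.157 to 2.20) of thinned members and 3.54% unthinned, with 1.11% in lymphocyte-like barcodes (2.59% unthinned). Jun, an early-response transcription factor gene, stood at 81.5 CPM in S2-like, 191 in S1-like and 40.5 in S3-like cells.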
